A study of Mus musculus with 8 samples.

Results

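The genes of the cell cycle and of cell cycle exit were compared between GFP-positive cells sorted from 3 segments of the adult mouse gut. The set was a list of 46 symbols, chosen by name, with earlier results of these data known. It holds genes of replication licensing, DNA synthesis, the cyclins, mitosis and the cyclin-dependent kinase (CDK) inhibitors, and 42 of the 46 had a row among the 18131 gene rows measured. The file names its rows in upper case (CCND1, TOP2A and CDKN1C, for example), and mouse symbols are written here as Ccnd1. Of the 42, 41 were found by their symbol and Cdc45 by an older symbol. Aurkb, Mki67, Cenpf and Kif20a were not analysed here. Expression was measured on 8 Illumina bead arrays, each with RNA of cells purified by fluorescence sorting. The donors were adult mice of the Ngn3-GFP strain, in which GFP marks cells that use the Neurog3 promoter, and Neurog3 encodes a transcription factor needed to begin endocrine development. No treatment is given for any group. The groups were gastric cells from the pyloric (antral) stomach (3 arrays), duodenal cells (3 arrays) and colonic cells (2 arrays), all labelled as enteroendocrine cells. Stomach was dissociated with a longer EDTA step and Accutase, and both intestinal segments with EDTA and dispase, so segment and dissociation cannot be told apart in the gastric comparisons.

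A cell enters the cycle when D-type and E-type cyclins, with their CDKs, release E2F transcription factors from the RB protein. Replication origins are licensed by loading of the MCM helicase before DNA is copied. After DNA is copied, the mitotic kinases and the anaphase-promoting complex (APC/C) drive the separation of chromosomes. CDK inhibitors of the CIP/KIP and INK4 families hold this machinery back. In the gut, division takes place in crypts and gastric glands, and mature endocrine cells do not divide.

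Promoters of 5 members are printed as examples of windows that hold sequence elements by which many cycle genes are known to be controlled. E2F elements occur in genes of the G1 to S transition, and the cell cycle genes homology region (CHR) in genes of G2 and M. The 5 were taken from members with a match. Members without a match to either element, such as Tyms and Nusap1, also differed between segments. The windows are from RefSeq on GRCm38.p6, from 250 bases before to 50 bases after the annotated start, given 5′ to 3′ on the strand of the gene, with matches to the E2F or CHR elements in capitals. Positions are counted from the first transcribed base. The matches of Mcm5 (chr8:75109259-75109558, plus strand) lie at -153 and -149 and overlap. Those of Mcm6 (chr1:128359656-128359955, minus strand) lie at -110, -106 and -47, and the matches at -110 and -106 overlap. The CHR match of Cdc20 (chr4:118437294-118437593, minus strand) lies at -18, that of Ube2c (chr2:164769679-164769978, plus strand) at -29, and those of Top2a (chr11:99024140-99024439, minus strand) at -179 and -23.
Mcm5: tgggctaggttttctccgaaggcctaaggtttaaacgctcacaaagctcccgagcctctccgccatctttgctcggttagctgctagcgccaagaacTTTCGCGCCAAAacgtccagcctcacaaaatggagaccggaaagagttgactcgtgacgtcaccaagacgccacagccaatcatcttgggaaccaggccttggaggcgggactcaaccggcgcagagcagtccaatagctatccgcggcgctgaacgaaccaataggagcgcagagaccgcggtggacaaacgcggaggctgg
Mcm6: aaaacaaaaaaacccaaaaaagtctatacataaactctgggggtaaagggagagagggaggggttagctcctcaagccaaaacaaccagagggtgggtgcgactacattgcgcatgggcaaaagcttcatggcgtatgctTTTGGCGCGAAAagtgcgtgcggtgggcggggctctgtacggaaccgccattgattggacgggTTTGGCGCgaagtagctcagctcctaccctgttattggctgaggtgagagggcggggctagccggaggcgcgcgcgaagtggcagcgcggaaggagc
Cdc20: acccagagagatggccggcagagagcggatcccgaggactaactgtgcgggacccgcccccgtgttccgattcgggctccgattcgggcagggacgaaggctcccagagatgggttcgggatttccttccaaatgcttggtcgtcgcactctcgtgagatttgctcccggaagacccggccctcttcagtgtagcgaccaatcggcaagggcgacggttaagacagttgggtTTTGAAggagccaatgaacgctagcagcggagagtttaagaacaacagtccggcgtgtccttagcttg
Ube2c: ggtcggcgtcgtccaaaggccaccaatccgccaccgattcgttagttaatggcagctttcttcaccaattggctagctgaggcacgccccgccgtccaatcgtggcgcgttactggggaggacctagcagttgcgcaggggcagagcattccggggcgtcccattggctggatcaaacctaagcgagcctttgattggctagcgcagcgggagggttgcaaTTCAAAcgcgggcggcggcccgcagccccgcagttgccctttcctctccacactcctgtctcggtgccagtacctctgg
Top2a: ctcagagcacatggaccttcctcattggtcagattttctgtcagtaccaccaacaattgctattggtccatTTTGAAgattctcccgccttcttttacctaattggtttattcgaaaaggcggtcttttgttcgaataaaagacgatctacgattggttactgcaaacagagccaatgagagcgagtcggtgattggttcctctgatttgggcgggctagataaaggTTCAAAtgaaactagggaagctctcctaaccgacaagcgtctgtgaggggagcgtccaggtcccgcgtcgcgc

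Of the 42 members, 34 had such a window. Mcm4, Gmnn, Ccnd1, Ccnd2, Ccne2, Ccna2, Cdc25c and Cdkn1c were not among them. The CHR letters TTTGAA, read on both strands, were present in windows of 12 of the 34 members (35.3%) and of 5466 of all 27025 genes (20.2%). Among the 13 members of mitosis, 9 held them (69.2%), against 2 of 8 licensing members and 0 of 6 DNA synthesis members. The E2F letters TTTGGCGC, TTTCCCGC, TTTGGCGG, TTTCGCGC or GGCGGGAA, which partly overlap one another, were present in 8 of 34 members (23.5%) and in 4.5% of all genes. Of the licensing members 6 of 8 held at least 1 match, and of the 13 members of mitosis 0 did. The CCAAT box was present in 26 of 34 members (76.5%) and in 41.1% of all genes. A match is a run of letters in the window and not a measured site.

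Values are log2 expression levels, and a call is a Benjamini-Hochberg adjusted p under 0.05 in limma over all 18131 rows. Arrays of a segment correlated across genes at 0.997 to 0.998, and arrays of different segments at 0.901 to 0.954. Whether each array holds RNA of different animals is not stated in the labels. The p-values therefore describe the spread among these 8 arrays alone, possibly a technical one, and the number of arrays limits the precision. Many genes differed between the segments, with 46.6% of all rows called in either direction in gastric against duodenal cells, 44.1% in gastric against colonic cells and 34.2% in duodenal against colonic cells. Endocrine markers were graded, with the mean level of 12 markers at 11.06 to 11.10 in gastric, 8.78 to 8.84 in duodenal and 7.58 to 7.59 in colonic arrays. Neurog3 stood at 13.03 ± 0.07 (SD, n = 3), 9.74 ± 0.03 (SD, n = 3) and 8.73 ± 0.05 (SD, n = 2).

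Most of the listed genes of replication and mitosis were lower in gastric cells than in either intestinal group, and 3 of the 4 listed CDK inhibitors were higher. Against duodenal cells, 28 of the 42 members were lower in gastric cells, where 23.9% of all rows were, and 5 were higher, where 22.7% of all rows were. Against colonic cells, 27 members were lower (23.9% of all rows) and 5 higher (20.2% of all rows). The median log2 difference of the members was -0.24 against duodenal and -0.34 against colonic cells, and over all rows it was -0.01 and -0.02. The lower members differed by less than 2-fold. Both comparisons use the same 3 gastric arrays. Without the G1 cyclins and the CDK inhibitors, 33 members remain, of which 25 were lower and 0 higher in gastric than in duodenal cells by limma (0 higher also at an unadjusted p under 0.05). In the gastric against colonic comparison 26 of them were lower and 1, Mcm7, was higher. In bulk RNA of sorted cells, fewer cells of a type and less RNA per cell cannot be told apart.

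Between the intestinal segments the difference was smaller. In duodenal against colonic cells 14 members were lower in duodenal cells (18.2% of all rows), 4 (Mcm7, Ccnd2, Cdkn1a and Cdkn1c) were higher (16.0% of all rows) and 24 were not called, with a median difference of -0.06. Without duodenal replicate 3, 7 members were higher. In 26 of the 42 members (61.9%) all 3 gastric arrays lay below all 5 intestinal arrays, a pattern held by 19.4% of all rows. In 3 members (7.14%), Cdkn1a, Cdkn1c and Cdkn2c, the gastric arrays all lay above the intestinal arrays, a smaller share than the 18.7% of all rows. The order gastric below duodenal below colonic in every array was held by 15 members (35.7%) and 6.42% of all rows. The heat map of members by array shows these patterns.

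**Figure D1:**
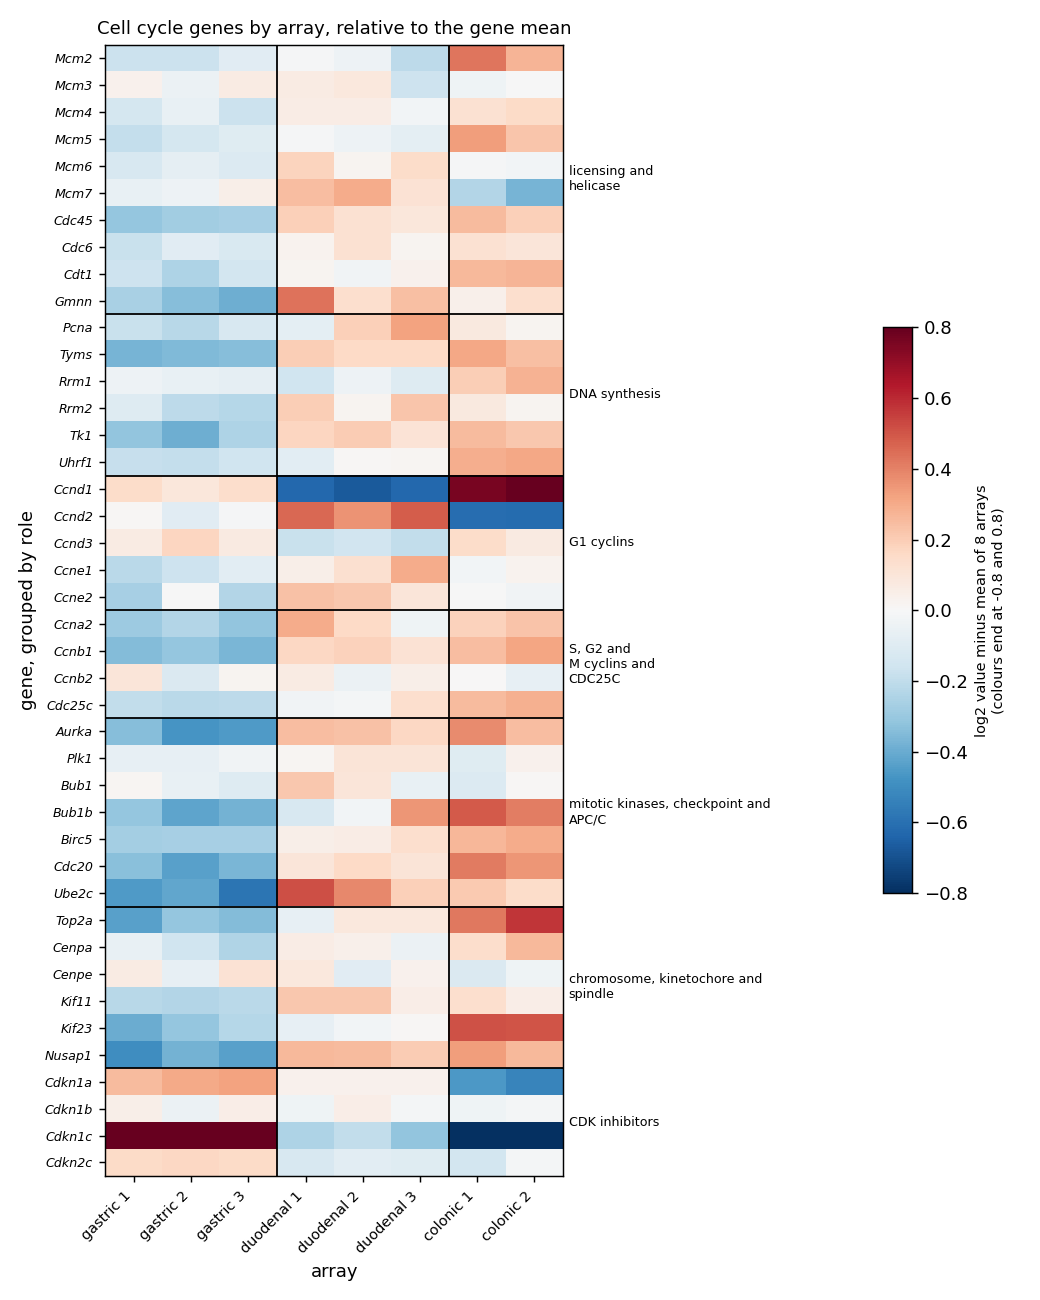
Log2 level of each member in each of the 8 arrays, minus the mean of that gene over the 8 arrays, with members grouped by role and arrays grouped by segment, and colours ending at -0.8 and 0.8. In 26 of 42 members the 3 gastric arrays lie below all 5 intestinal arrays, and Cdkn1c shows the opposite order, with gastric arrays highest and colonic arrays lowest.

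Licensing genes were modestly lower in gastric cells. Of 10 measured members, 7 were lower than in duodenal cells and 7 lower than in colonic cells (23.9% of all rows in each comparison). Gmnn, geminin, which blocks relicensing by binding Cdt1, read 7.14, 7.06 and 7.01 in gastric, 7.83, 7.53 and 7.64 in duodenal, and 7.44 and 7.53 in colonic arrays. The gastric arrays did not overlap the others, and the level was 1.51-fold lower than in duodenal cells (log2 difference -0.60, SE 0.07, limma adjusted p = 2.5e-06) and 1.33-fold lower than in colonic cells (-0.42, SE 0.08, limma adjusted p = 0.000311). Cdc45, which joins the MCM ring to form the active helicase, read 7.10, 7.13 and 7.14 in gastric, 7.60, 7.53 and 7.50 in duodenal, and 7.66 and 7.60 in colonic arrays. It was 1.34-fold lower than in duodenal cells (limma adjusted p = 2.09e-06) and 1.42-fold lower than in colonic cells (limma adjusted p = 1.13e-06). Cdt1 and Cdc6, the factors that load the helicase, were lower in gastric cells in both comparisons, by 1.15-fold and 1.14-fold against duodenal and by 1.37-fold and 1.18-fold against colonic cells.

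The subunits of the MCM helicase did not move as 1 unit. Mcm2 read 8.89, 8.89 and 8.97 in gastric, 9.05, 9.02 and 8.85 in duodenal, and 9.49 and 9.33 in colonic arrays. Gastric and duodenal arrays overlapped, and Mcm2 was lower than in colonic cells by 1.41-fold in gastric (limma adjusted p = 1.97e-05) and 1.35-fold in duodenal cells (limma adjusted p = 0.000112). Mcm5, whose promoter is printed above, followed the same order, with 10.30 ± 0.05 (SD, n = 3) in gastric, 10.41 ± 0.04 (SD, n = 3) in duodenal and 10.73 ± 0.08 (SD, n = 2) in colonic cells, and only the differences from colonic cells were called. Mcm6 was instead highest in duodenal cells at 9.69 ± 0.08 (SD, n = 3), against 9.47 ± 0.03 (SD, n = 3) in gastric cells (limma adjusted p = 0.00191) and 9.55 ± 0.01 (SD, n = 2) in colonic cells, where no difference was called (limma adjusted p = 0.262 from gastric and 0.0848 from duodenal cells, the latter 0.0238 without duodenal replicate 2). Mcm3 was not called in any comparison, with means between 7.57 and 7.61. Mcm4 was lower in gastric cells in both comparisons (1.11-fold and 1.20-fold), but its call against duodenal cells was lost without gastric replicate 3 (limma adjusted p = 0.0593).

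Mcm7 went against the other licensing genes in the colon. It read 6.82, 6.84 and 6.93 in gastric, 7.13, 7.18 and 7.0 in duodenal, and 6.65 and 6.51 in colonic arrays. These values lie close to background, taken as 6.82, the 95th percentile of all values of 1038 olfactory receptor rows. That most of these rows are silent in the sorted cells was assumed and not tested. Colonic Mcm7 was under the background level, so gastric cells were at least 1.03-fold higher (limma adjusted p = 0.00207) and duodenal cells at least 1.22-fold higher (limma adjusted p = 1.31e-05).

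Genes of DNA synthesis and nucleotide supply were lower in gastric cells, 5 of 6 against duodenal and 6 of 6 against colonic cells. Of all rows, 23.9% were lower in each comparison. Tyms, thymidylate synthase, read 8.15, 8.17 and 8.18 in gastric, 8.72, 8.68 and 8.68 in duodenal, and 8.83 and 8.76 in colonic arrays. The gastric arrays stood apart, 1.44-fold under duodenal cells (-0.53, SE 0.04, limma adjusted p = 8.3e-08) and 1.54-fold under colonic cells (-0.63, SE 0.05, limma adjusted p = 4.76e-08). The intestinal groups did not overlap but were not called different (limma adjusted p = 0.144). Tk1, the thymidine kinase of the salvage route, showed the same order, at 8.27 ± 0.07 (SD, n = 3), 8.75 ± 0.04 (SD, n = 3) and 8.82 ± 0.03 (SD, n = 2). Rrm1 and Rrm2, the subunits of ribonucleotide reductase, differed from each other. Rrm1 was higher in colonic cells (9.24 ± 0.05, SD, n = 2) than in gastric (8.94 ± 0.01, SD, n = 3) and duodenal cells (8.90 ± 0.06, SD, n = 3), and gastric and duodenal arrays overlapped. Rrm2 was lower in gastric cells, at 7.37 ± 0.07 (SD, n = 3), than in duodenal cells at 7.70 ± 0.11 (SD, n = 3) and colonic cells at 7.60 ± 0.04 (SD, n = 2), and its call against colonic cells was lost without colonic replicate 1 (limma adjusted p = 0.0938).

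Uhrf1, which brings the maintenance DNA methyltransferase to copied DNA, rose in order from gastric (9.58 ± 0.01, SD, n = 3) to duodenal (9.74 ± 0.06, SD, n = 3) to colonic cells (10.06 ± 0.01, SD, n = 2), and each step was called. Pcna, the sliding clamp of the replication fork, read 7.51, 7.47 and 7.56 in gastric, 7.61, 7.88 and 8.01 in duodenal, and 7.77 and 7.71 in colonic arrays. The gastric arrays lay below the rest, by 1.25-fold against duodenal cells (limma adjusted p = 0.00295). The 1.17-fold difference from colonic cells passed the threshold only narrowly (limma adjusted p = 0.0435) and was lost when any 1 gastric array, either colonic array or duodenal replicate 2 was left out (limma adjusted p 0.0521 to 0.197).

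The D-type cyclins, which answer to growth signals in G1, differed by gene rather than together. Ccnd1 read 10.67, 10.61 and 10.66 in gastric, 9.89, 9.85 and 9.89 in duodenal, and 11.28 and 11.32 in colonic arrays. No groups overlapped, and gastric cells were 1.71-fold above duodenal (0.77, SE 0.04, limma adjusted p = 9.59e-10) and 1.57-fold below colonic cells (-0.65, SE 0.05, limma adjusted p = 3.41e-08). The duodenal level was 2.68-fold below the colonic level (-1.42, SE 0.05, limma adjusted p = 7.64e-12).

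Ccnd2 ran the other way. It read 9.83, 9.73 and 9.81 in gastric, 10.28, 10.18 and 10.30 in duodenal, and 9.21 and 9.20 in colonic arrays, so the duodenal arrays were highest and the colonic arrays lowest. Duodenal cells were 2.07-fold above colonic cells (1.05, SE 0.06, limma adjusted p = 8.83e-10), and gastric cells were 1.38-fold below duodenal (limma adjusted p = 1.13e-06) and 1.50-fold above colonic cells (limma adjusted p = 3.62e-07). Ccnd3 was lowest in duodenal cells, at 8.50 ± 0.02 (SD, n = 3), with gastric cells at 8.78 ± 0.06 (SD, n = 3) and colonic cells at 8.78 ± 0.04 (SD, n = 2). Ccne1 and Ccne2, the E-type cyclins that drive entry into S phase, were lower in gastric than in duodenal cells by 1.24-fold and 1.27-fold (limma adjusted p = 0.00058 and 0.000351). Against colonic cells their log2 differences were -0.16 (SE 0.07) and -0.15 (SE 0.07), with limma adjusted p-values of 0.0822 and 0.116. Neither p-value was stable. Ccne1 passed without duodenal replicate 3 (limma adjusted p = 0.0323), with the filter on dim genes (0.0493) and with only the compared groups in the fit (0.0375), and Ccne2 passed without gastric replicate 2 (limma adjusted p = 0.00831). In duodenal against colonic cells the log2 difference of Ccne2 was 0.2 (SE 0.07), and the arrays did not overlap. It narrowly missed the threshold (limma adjusted p = 0.0502) and passed it under 8 of 15 alternatives.

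Among the later cyclins, Ccnb1, the main partner of CDK1 in mitosis, read 8.54, 8.58 and 8.52 in gastric, 9.05, 9.07 and 9.0 in duodenal, and 9.13 and 9.20 in colonic arrays. Gastric cells lay 1.41-fold below duodenal (-0.49, SE 0.05, limma adjusted p = 2.7e-07) and 1.53-fold below colonic cells (-0.61, SE 0.05, limma adjusted p = 9.79e-08). Ccna2, the cyclin of S phase and G2, was lower in gastric cells by 1.34-fold and 1.40-fold. Cdc25c, a phosphatase that activates CDK1, was close to background, at 6.95 ± 0.01 (SD, n = 3), 7.19 ± 0.09 (SD, n = 3) and 7.42 ± 0.02 (SD, n = 2), and was called lower in each step from colonic to gastric cells. Ccnb2 was under the background level in all 3 groups.

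The members with the largest decrease in each gastric comparison were genes of mitosis. Of the 7 kinase, checkpoint and APC/C members, 5 were lower in gastric cells in each comparison (23.9% of all rows in each). Their median log2 differences were -0.44 against duodenal and -0.66 against colonic cells. Ube2c, the ubiquitin-conjugating enzyme of the APC/C, read 7.60, 7.64 and 7.47 in gastric, 8.57, 8.44 and 8.24 in duodenal, and 8.26 and 8.20 in colonic arrays. The intestinal groups overlapped and were not called different (limma adjusted p = 0.101, and 0.00799 without duodenal replicate 3). Gastric cells were 1.79-fold below duodenal (-0.84, SE 0.07, limma adjusted p = 9.54e-08) and 1.58-fold below colonic cells (-0.66, SE 0.08, limma adjusted p = 5.81e-06). Cdc20, the APC/C activator of metaphase, read 8.93, 8.83 and 8.90 in gastric, 9.36, 9.42 and 9.37 in duodenal, and 9.68 and 9.62 in colonic arrays. All 3 groups stood apart, with gastric cells 1.41-fold below duodenal (-0.50, SE 0.05, limma adjusted p = 3.57e-07) and 1.69-fold below colonic cells (-0.76, SE 0.05, limma adjusted p = 1.21e-08), and duodenal cells 1.20-fold below colonic cells (-0.26, SE 0.05, limma adjusted p = 0.00114).

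Aurka, the kinase of centrosomes and spindle poles, read 8.20, 8.07 and 8.09 in gastric, 8.79, 8.78 and 8.71 in duodenal, and 8.92 and 8.79 in colonic arrays. It was 1.55-fold and 1.66-fold lower in gastric cells (limma adjusted p = 7.64e-08 and 6.65e-08), and the intestinal groups were not called different (limma adjusted p = 0.26). Bub1b, the checkpoint protein BUBR1, varied most among duodenal arrays, at 7.98, 8.09 and 8.46, with gastric arrays at 7.80, 7.69 and 7.73 and colonic arrays at 8.60 and 8.52. It was lower in gastric cells by 1.36-fold and 1.77-fold, and lower in duodenal than in colonic cells by 1.31-fold (limma adjusted p = 0.00817, and 0.074 without colonic replicate 1). Birc5, survivin, a subunit of the chromosomal passenger complex, stood at 9.67 ± 0.01 (SD, n = 3), 10.02 ± 0.05 (SD, n = 3) and 10.22 ± 0.02 (SD, n = 2), and each step was called, although the step between the intestinal segments was lost without colonic replicate 2 (limma adjusted p = 0.0522).

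Plk1, a kinase of mitotic entry and cytokinesis, did not follow the other mitotic genes. It read 9.40, 9.40 and 9.44 in gastric, 9.48, 9.57 and 9.57 in duodenal, and 9.37 and 9.50 in colonic arrays, and no comparison was called. Its difference between gastric and duodenal cells, -0.13 (SE 0.05), missed the threshold (limma adjusted p = 0.0536) but passed it with the filter on dim genes (0.0285), with trend and robust variance (0.0356), with only the compared groups in the fit (0.0439), without duodenal replicate 1 (0.036) and without either colonic array (0.0439), and the difference from colonic cells was -0.02 (SE 0.06). Bub1 was under the background level in all 3 groups.

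**Figure D2:**
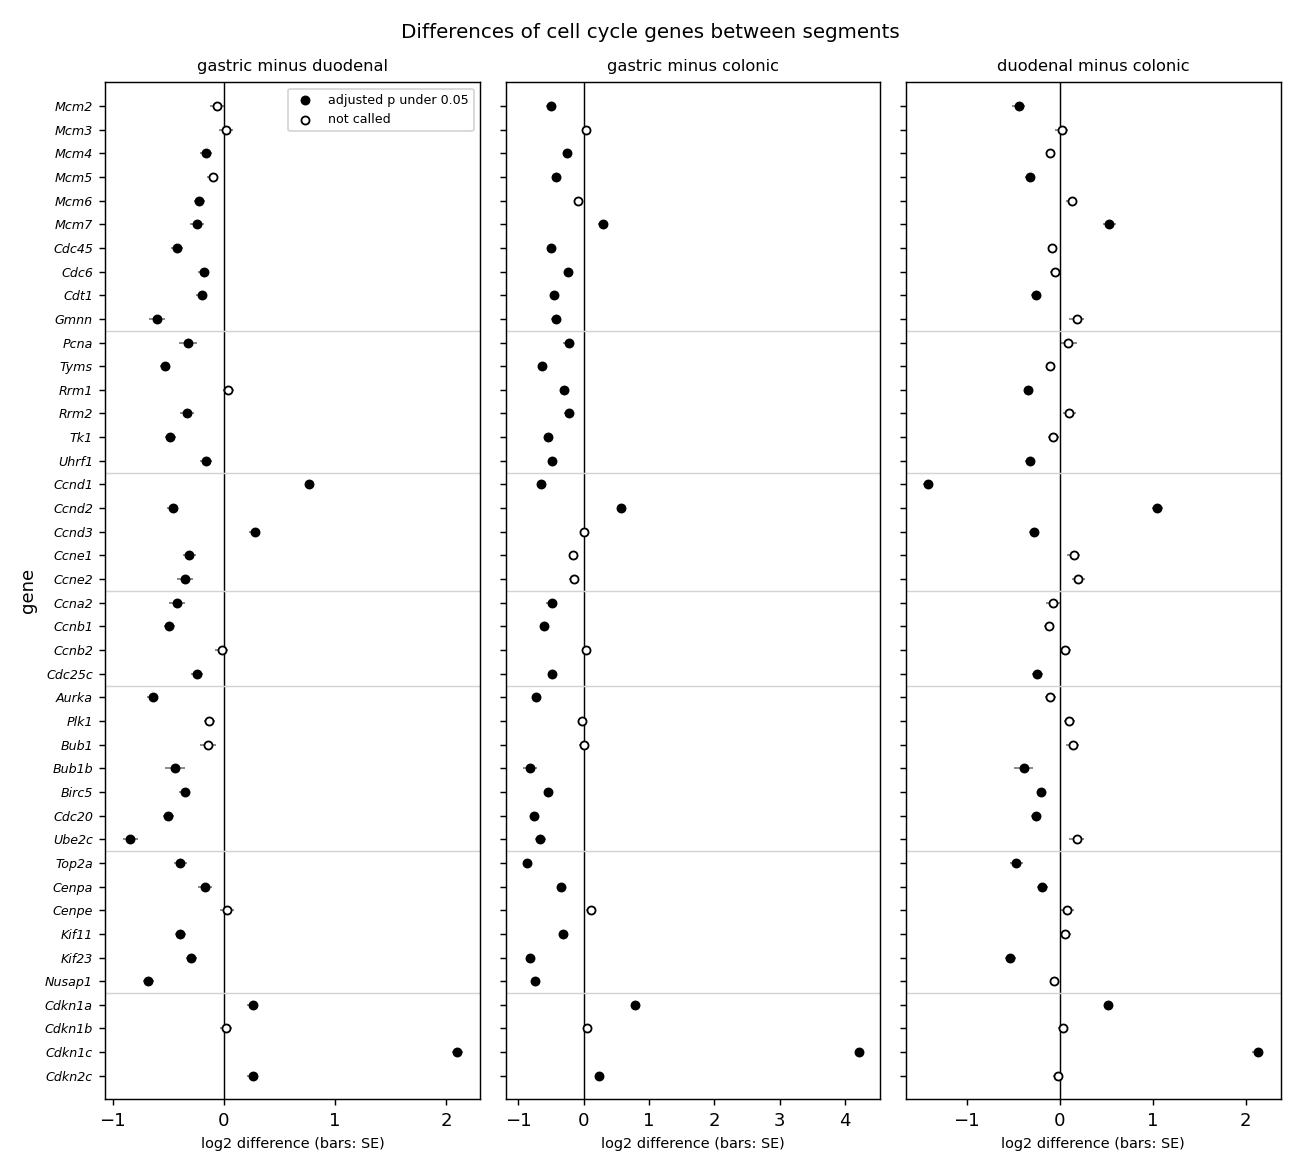
Log2 difference of each member in the 3 comparisons, gastric minus duodenal, gastric minus colonic and duodenal minus colonic, with bars of 1 standard error from limma, and filled points for members called at an adjusted p under 0.05. Genes of replication and mitosis lie mostly left of 0 in both gastric comparisons, and Cdkn1c lies far to the right in all 3, at 2.10, 4.22 and 2.13.

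Chromosome and spindle genes were lower in gastric cells, 5 of 6 in each gastric comparison, where 23.9% of all rows were. Top2a, the topoisomerase that untangles sister chromatids, read 9.02, 9.15 and 9.11 in gastric, 9.39, 9.54 and 9.54 in duodenal, and 9.88 and 10.03 in colonic arrays. All groups stood apart, and gastric cells were 1.31-fold below duodenal (-0.39, SE 0.06, limma adjusted p = 4.44e-05) and 1.82-fold below colonic cells (-0.86, SE 0.07, limma adjusted p = 3.64e-08), the largest decrease of a member against the colon. Nusap1, which binds spindle microtubules, read 8.09, 8.21 and 8.15 in gastric, 8.85, 8.84 and 8.79 in duodenal, and 8.92 and 8.85 in colonic arrays. Gastric arrays were 1.60-fold and 1.66-fold lower (limma adjusted p = 1.16e-08 and 2.03e-08), while the intestinal groups overlapped.

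Kif23, a kinesin of the central spindle needed for cytokinesis, read 7.74, 7.83 and 7.91 in gastric, 8.07, 8.12 and 8.15 in duodenal, and 8.65 and 8.64 in colonic arrays. Its step between the intestinal segments, 1.45-fold (-0.53, SE 0.06, limma adjusted p = 3.33e-06), exceeded its step between gastric and duodenal cells, 1.22-fold (-0.29, SE 0.05, limma adjusted p = 0.000258), though the difference between these steps was not tested. Kif11, the kinesin that pushes the spindle poles apart, was 1.31-fold and 1.25-fold lower in gastric cells. Cenpa, the histone H3 variant of centromeres, had high levels in all groups, at 11.29 ± 0.09 (SD, n = 3), 11.46 ± 0.06 (SD, n = 3) and 11.64 ± 0.08 (SD, n = 2). Its 1.12-fold difference between gastric and duodenal cells (limma adjusted p = 0.0248) was lost without gastric replicate 2 or 3 or without duodenal replicate 1 or 2 (limma adjusted p 0.0624 to 0.124). Its 1.14-fold difference between duodenal and colonic cells (limma adjusted p = 0.0353) was lost without duodenal replicate 2 or 3 or colonic replicate 2 (limma adjusted p 0.0536 to 0.282). Cenpe was under the background level in all 3 groups.

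Of the 4 listed CDK inhibitors, 3 were higher in gastric cells in both gastric comparisons, where 22.7% and 20.2% of all rows were, and Cdkn2b of the wider list was lower, as given below. Cdkn1c, which encodes p57 and is an imprinted gene of the CIP/KIP family, showed the widest range of all members. It read 12.49, 12.58 and 12.47 in gastric, 10.42, 10.47 and 10.35 in duodenal, and 8.28 and 8.29 in colonic arrays. The groups were far apart, with gastric cells 4.28-fold above duodenal (2.10, SE 0.05, limma adjusted p = 3.26e-14) and 18.7-fold above colonic cells (4.22, SE 0.06, limma adjusted p = 4.95e-17). Duodenal cells were 4.37-fold above colonic cells (2.13, SE 0.06, limma adjusted p = 2.95e-13). The decrease from stomach to colon had the same order as the endocrine markers given above. Their part in the result was not tested.

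Cdkn1a, which encodes p21 and is a target of p53, read 10.70, 10.75 and 10.77 in gastric, 10.48 in each of the 3 duodenal, and 9.99 and 9.92 in colonic arrays. It followed the order of Cdkn1c over a narrower range, 1.20-fold higher in gastric than in duodenal cells (0.26, SE 0.05, limma adjusted p = 0.000187), 1.72-fold higher in gastric than in colonic cells (0.78, SE 0.05, limma adjusted p = 5.14e-09) and 1.43-fold higher in duodenal than in colonic cells (0.52, SE 0.05, limma adjusted p = 9.9e-07). Cdkn1a and Cdkn1c were the 2 members with gastric above duodenal above colonic in every array. That is 4.76% of the members, near the 5.45% of all rows that held this order. Cdkn2c, the INK4 inhibitor p18, was higher in gastric cells, by 1.20-fold against duodenal and 1.18-fold against colonic cells, and its intestinal groups overlapped (7.64 ± 0.02, SD, n = 3, and 7.66 ± 0.09, SD, n = 2). Cdkn1b, p27, was under the background level in all 3 groups, which does not show that its transcript was absent.

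Cdkn2b, the INK4 inhibitor p15, belongs to the wider list of exit genes and ran opposite to Cdkn1c between gastric and intestinal cells. It read 8.01, 7.93 and 8.01 in gastric, 11.36, 11.33 and 11.24 in duodenal, and 10.15 and 10.07 in colonic arrays. Gastric cells were 10.0-fold below duodenal (-3.33, SE 0.05, limma adjusted p = 2.39e-16) and 4.36-fold below colonic cells (-2.12, SE 0.06, limma adjusted p = 1.29e-13). The plot of D-type cyclins and inhibitors by array sets these genes side by side.

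**Figure D3:**
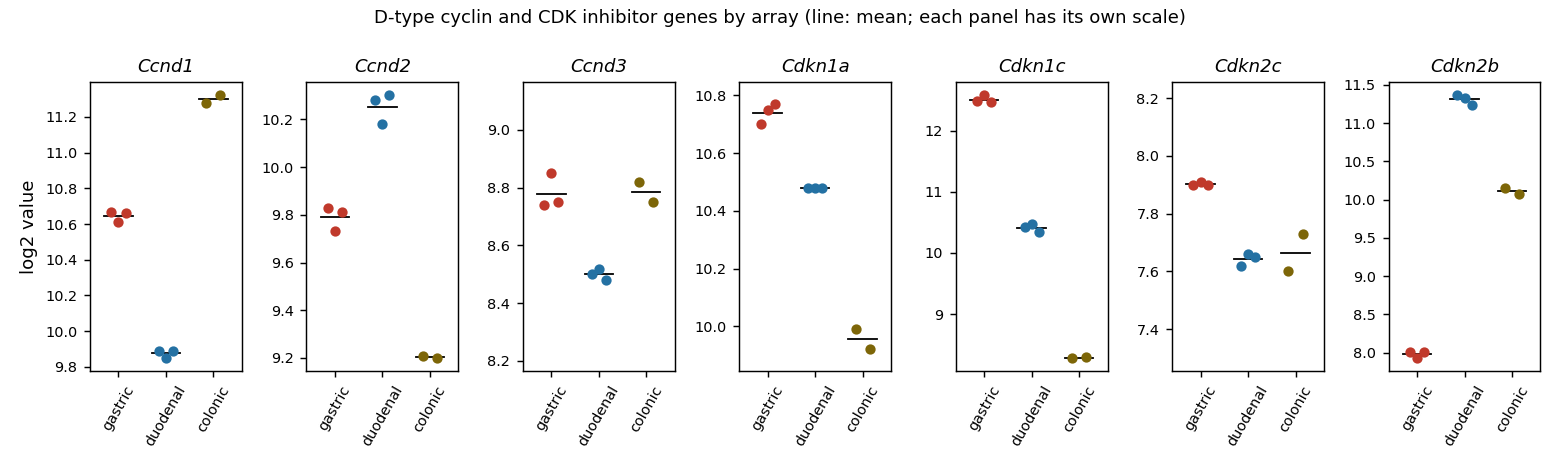
Log2 level of the D-type cyclins and of Cdkn1a, Cdkn1c, Cdkn2c and Cdkn2b in each array by segment, with 1 point per array and a line at the mean, and a scale of its own for each gene. Cdkn1c falls from a mean of 12.51 in gastric to 10.41 in duodenal and 8.29 in colonic cells, Ccnd1 is lowest in duodenal cells, and Ccnd2 is highest there.

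Other genes of the pathway, 150 measured rows in 4 lists, were also more often lower than higher in gastric cells. Against duodenal cells 81 were lower (54.0%, against 23.9% of all rows) and 21 higher (14.0%, against 22.7%). Against colonic cells 95 were lower (63.3%, against 23.9% of all rows) and 16 higher (10.7%, against 20.2%). In duodenal against colonic cells 57 were lower (38.0%, against 18.2% of all rows) and 22 higher (14.7%, close to the 16.0% of all rows), and the latter count was 12 without colonic replicate 1. Of 41 further replication genes, 26 were lower and 2 higher in gastric than in duodenal cells, and 28 lower and 1 higher than in colonic cells. Rfc4, a subunit of the clamp loader, was 1.76-fold lower than in duodenal cells (limma adjusted p = 6.37e-09), and Mcm10 (1.66-fold) and Cdc7 (1.73-fold), the latter a kinase that fires origins, were lower than in colonic cells. Rpa1, a subunit of the protein that coats single-stranded DNA, was higher in gastric cells at 11.31 ± 0.10 (SD, n = 3), against 10.65 ± 0.02 (SD, n = 3) in duodenal cells (1.58-fold) and 10.75 ± 0.06 (SD, n = 2) in colonic cells (1.47-fold), whereas Rpa3 of the same complex was 1.70-fold and 1.39-fold lower.

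Of 49 further mitosis genes, 31 were lower and 4 higher in gastric than in duodenal cells (23.9% and 22.7% of all rows). Against colonic cells 39 were lower and 2 higher in gastric cells (23.9% and 20.2% of all rows). In duodenal against colonic cells 26 were lower and 1 higher (18.2% and 16.0% of all rows). Hmgb2, a chromatin protein abundant in dividing cells, read 8.66, 8.97 and 8.66 in gastric, 9.86, 9.83 and 9.88 in duodenal, and 9.65 and 9.76 in colonic arrays. It was 2.13-fold lower than in duodenal cells (-1.09, SE 0.07, limma adjusted p = 5.01e-09) and 1.92-fold lower than in colonic cells (-0.94, SE 0.08, limma adjusted p = 1.22e-07). Cenpp, a centromere protein, was 1.86-fold and 2.00-fold lower in gastric cells. Incenp, of the same passenger complex as Birc5, separated the colon from the rest, at 8.14 ± 0.07 (SD, n = 3) in gastric, 8.27 ± 0.08 (SD, n = 3) in duodenal and 8.95 ± 0.07 (SD, n = 2) in colonic cells, and gastric and duodenal cells were not called different (limma adjusted p = 0.0823, and 0.0399 without duodenal replicate 3).

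Of 34 regulators of the CDK, E2F and RB pathway, 17 were lower and 3 higher in gastric than in duodenal cells (23.9% and 22.7% of all rows). Against colonic cells 19 were lower and 4 higher (23.9% and 20.2% of all rows). E2f2, an E2F activator, was lower in gastric cells by 1.88-fold and 1.59-fold, Rb1, which encodes RB, by 1.70-fold and 1.24-fold and its relative Rbl1 by 1.65-fold and 1.66-fold. Foxm1, a transcription factor of G2 and M genes, was 1.50-fold lower in gastric than in colonic cells and 1.36-fold lower in duodenal than in colonic cells. Its 1.10-fold difference between gastric and duodenal cells (limma adjusted p = 0.021) was lost without duodenal replicate 1 or 2 or gastric replicate 3 (limma adjusted p 0.0544 to 0.0634).

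Genes of exit, p53 response and antiproliferative function moved in both directions. In gastric against duodenal cells 12 of 26 were higher (46.2%, against 22.7% of all rows) and 7 lower (26.9%, near the 23.9% of all rows). In gastric against colonic cells 9 were higher and 9 lower (34.6% each, against 20.2% and 23.9% of all rows). Gadd45g, a stress and differentiation gene, was 2.75-fold higher in gastric than in duodenal cells (10.57 ± 0.03 and 9.12 ± 0.04, SD, n = 3 each) and 1.72-fold higher than in colonic cells (9.80 ± 0.03, SD, n = 2). Sesn1, a p53 target, was 2.41-fold and 1.35-fold lower in gastric cells, and Ccng2, an unusual cyclin linked to arrest, 1.72-fold and 1.66-fold lower. The median log2 differences of the list were 0.02 and 0.04.

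**Figure D4:**
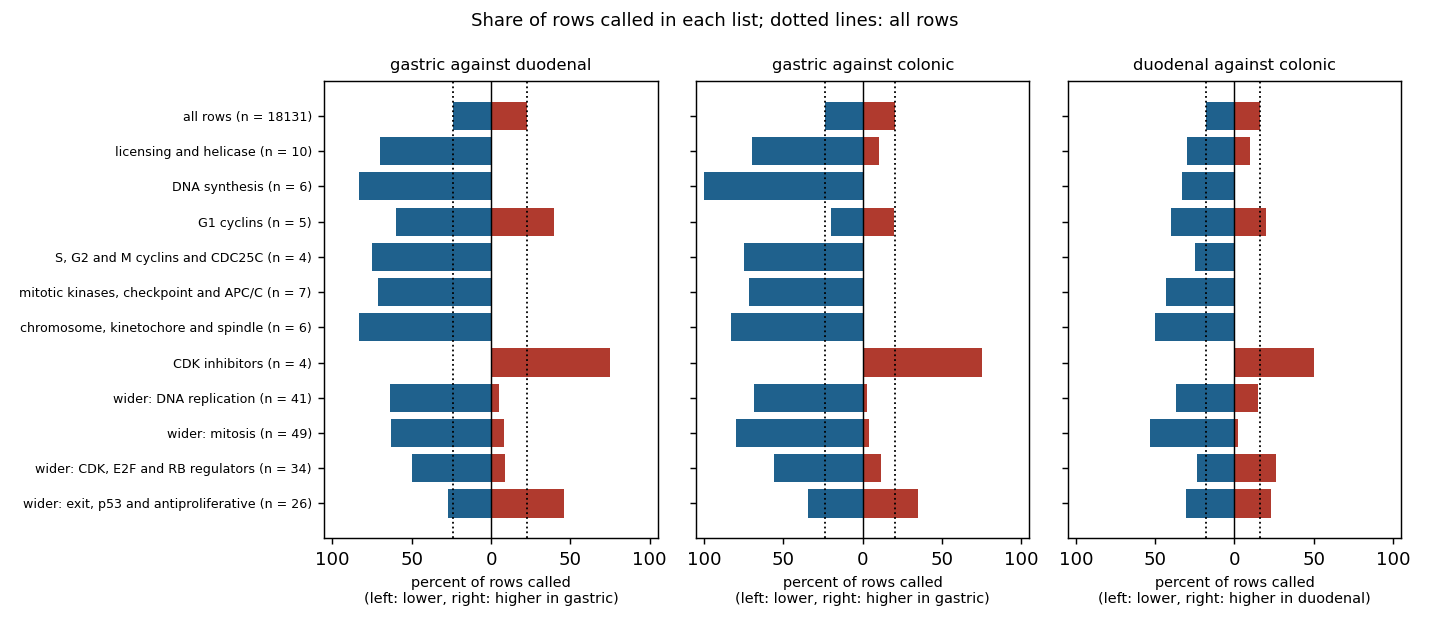
Share of each list called higher and lower at an adjusted p under 0.05 in the 3 comparisons, in percent of the list's measured rows, with the share of all rows called marked for each direction. Bars to the left are shares lower and bars to the right shares higher in the first-named group. In gastric against duodenal cells 5 of 6 DNA synthesis members were lower, against 23.9% of all rows, and 3 of 4 CDK inhibitors were higher, against 22.7% of all rows.

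Markers of other cell types were also unequal among the segments. All 12 endocrine markers were higher in gastric than in duodenal cells (22.7% of all rows), and 11 of 12 were higher than in colonic cells (20.2% of all rows). Of the 12, 1 was under background in all groups. Of 14 stem cell markers, 7 were higher and 2 lower in gastric than in duodenal cells (22.7% and 23.9% of all rows). Against colonic cells 6 were higher and 5 lower (20.2% and 23.9% of all rows). Mean levels were 8.43 to 8.47 in gastric, 8.30 to 8.35 in duodenal and 8.48 to 8.49 in colonic arrays. The list was split, with all gastric arrays above all intestinal arrays in 6 markers and below them in 3 (18.7% and 19.4% of all rows). Lgr5, the receptor that marks dividing stem cells, was higher in gastric cells (7.83 ± 0.06, SD, n = 3) than in duodenal (7.34 ± 0.08, SD, n = 3) and colonic cells (7.51 ± 0.01, SD, n = 2), against the direction of the mitotic members. Cdca7, a MYC and E2F target in the same list, was 2.05-fold and 2.09-fold lower in gastric cells.

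Mean marker levels in gastric, duodenal and colonic arrays were 8.59 to 8.62, 10.81 to 10.86 and 8.36 to 8.39 for enterocytes, and 10.65 to 10.70, 12.58 to 12.63 and 12.73 to 12.76 for Paneth cells. The Paneth list was split between the intestinal segments. Of its 6 genes, 3 were higher and 2 lower in duodenal than in colonic cells (16.0% and 18.2% of all rows). Their log2 differences ran from -1.72 to 0.84, with a median of 0.13. For gastric mucous cells the mean levels were 13.39, 9.17 to 9.20 and 6.82 to 6.86, and for chief and parietal cells 12.13 to 12.16, 8.21 to 8.26 and 7.30 to 7.39. Goblet cell markers stood at 10.70 to 10.73, 11.25 to 11.27 and 11.30 to 11.37, and tuft cell markers at 7.82 to 7.83, 8.19 to 8.22 and 6.83 to 6.86. Leukocyte markers stood at 6.94 to 6.99, 7.43 to 7.45 and 7.27 to 7.36, with 5 of 9 under background in all groups, Ptprc among them, while Cd3g was at 8.85 in duodenal and Cd74 at 12.96 in colonic cells. Stromal and endothelial markers stood at 6.72 to 6.74, 6.70 to 6.74 and 6.69 to 6.73, with 4 of 7 under background in all groups. A level of listed marker genes does not show that the named cell type was present in a segment. Any part of such cells in the differences of the cell cycle genes was not tested.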

How the data were processed

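The authors deposited log2 expression values of Illumina bead arrays, with 1 row per gene symbol. Their range, 6.22 to 15.49, led to a log base of 2, which no source used here states. GenomeStudio, lumi and limma were used, per the submitters' processing notes, without versions or roles. Sorted columns of the 8 arrays agreed within 0.0043, as after quantile normalization, so values show a gene's level relative to the rest of its array. The sources used here do not say how probes were joined into rows.

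All 8 arrays entered 1 linear model (limma 3.58.1, R 4.3.3) of segment means without covariates, and p-values were adjusted over 18131 rows. A fold against a group mean under 6.82, the 95th percentile of the values of 1038 olfactory receptor rows, is a lower bound, computed with each array of the dim group raised to at least 6.82, and none is given where both groups lay under it. The fit was also run on simulated data, in which few rows were changed and the noise was independent between arrays. That setting differs from these data, and no result given here rests on it. The members and lists were chosen with earlier results of these data known. Any member could be named. Of each wider list, the 3 called genes with the largest difference and no overlap between arrays could be named per comparison, and of each marker list the 2 brightest, and always Neurog3, Lgr5, Chga and Ptprc. Promoters came from RefSeq (GRCm38.p6). Replicate numbers were not taken as pairs in the main fit. Deviations of same-numbered arrays from their group means correlated at -0.014 to 0.013. With so few arrays per group this cannot show whether same-numbered arrays share an animal. Alternatives were other normalizations, a filter on dim genes, other variance settings, only the compared groups, array weights, a replicate block, a limit of 2-fold and each array left out. Other steps ran in Python 3.11.15 with pandas 2.3.3, numpy 2.4.6 and matplotlib 3.10.9.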

Additional observations from a re-analysis of the deposited data

How the results depend on the processing

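The numbers of members called kept within 1.5 times of the reported counts under every alternative except the limit of 2-fold and, for members higher in duodenal than in colonic cells, the omission of duodenal replicate 3. With the limit of 2-fold, which by construction keeps only large differences, 1408, 1344 and 645 of all rows were called in gastric against duodenal, gastric against colonic and duodenal against colonic cells. Of the members, 1, 1 and 2 were then higher and 0, 0 and 1 lower in these comparisons, and of the wider genes 1, 0 and 1 were higher and 3, 2 and 0 lower (limma, with each 0 also 0 at an unadjusted p under 0.05). The filter on dim genes, which leaves fewer members, moved the median log2 difference of the members to -0.30 against duodenal and -0.42 against colonic cells. Leaving out 1 array at a time gave medians of -0.26 to -0.22, -0.36 to -0.32 and -0.08 to -0.04, 4 to 7 members higher in duodenal than in colonic cells, and 12 to 23 wider genes higher there. The replicate block was used although the labels do not say that the numbers pair the arrays. With it, 28 members were lower in gastric cells in either comparison. In duodenal against colonic cells 13 were lower and 6 higher, and the median difference of gastric against colonic cells was -0.31. The block also ended the call of Cenpa in duodenal against colonic cells (limma adjusted p = 0.0943) and gave calls to Ube2c (0.00617) and Ccne2 (0.0175) there and to Ccne1 in gastric against colonic cells (0.00833). Each of these 3 calls was also gained under at least 1 other alternative, and that of Ccne2 under 8 of 15 in all. Of 126 differences of single members, 7 lost and 12 gained a call under at least 1 alternative other than the limit of 2-fold, and 0 called differences changed sign. Where a cause is not given, the cause was not tested. Values near the background level of 6.82 limit what can be seen of Mcm7, Cdc6, Ccne2 and Cdc25c. Gastric means of Gmnn (7.07), Cdc45 (7.12), Ccna2 (7.13) and Ccne1 (7.13) also lay near it, which limits their gastric differences too.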
